A study of Mus musculus with 12 samples.

Results

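Acetylcholine receptors and acetylcholinesterase were examined in RNA sequencing libraries of mouse prefrontal cortex: 5 muscarinic receptor genes (Chrm1 to Chrm5), 4 nicotinic subunit genes (Chrna4, Chrna5, Chrna7 and Chrnb2) and Ache. The members were taken by gene name, and all 10 were found among the 28842 genes of the deposited table. Both groups were wild-type male C57BL/6J mice. Adolescent mice of the cocaine group were injected with 15 mg/kg cocaine between postnatal days 28 and 42, those of the saline group with saline. In adulthood both groups went through a pre-test (day 75), place preference training with 1 mg/kg cocaine (days 76 and 77), and the test with tissue collection (day 78). The saline group was thus not free of cocaine. There were 6 libraries per group, and the labels do not tie libraries to separate mice, so each p-value rests on library-to-library spread, which may be partly technical. In both groups the labels give libraries 1, 3 and 5 a time tag of day 0, and libraries 2, 4 and 6 a tag of day 5.

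Acetylcholine reaches the prefrontal cortex mainly from basal forebrain neurons and acts on receptors of separate kinds. Muscarinic receptors are G protein-coupled: Chrm1, Chrm3 and Chrm5 signal through Gq and phospholipase C, and Chrm2 and Chrm4 through Gi and Go, which lower cyclic AMP. Nicotinic receptors are pentameric cation channels. Chrna4 and Chrnb2 form the main high-affinity channel of the brain, Chrna5 joins it as an accessory subunit, and Chrna7 can form a channel by itself that passes calcium. Acetylcholinesterase, the product of Ache, ends the signal by breaking acetylcholine down.

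Recovered reads ranged from 16915856 to 18826677 per cocaine library and from 16714249 to 19887591 per saline library, and mitochondrial transcripts took 3.30 to 5.43 percent of reads in cocaine and 3.24 to 5.27 percent in saline libraries. The labels also name a mesenchymal stem cell line. The tissue was checked against neuronal markers: Slc17a7, the vesicular glutamate transporter of cortical excitatory neurons, was at 28239 or more normalised reads in every library, against at most 344.7 for the fibroblast collagen Col1a2. Saline 5 stood apart by transcripts of choroid plexus, with 11208 normalised reads of Ttr against at most 13.2 in each other library.

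By r, the members that moved most closely together between libraries were Chrna7 with Chrm3 and then Chrna7 with Chrnb2, as described further on. The 250 bases upstream of the RefSeq starts (GRCm38.p6) of these 3 genes are shown because of it. All 3 lie on the minus strand, at chr7:63212527-63212776 for Chrna7, chr13:10360804-10361053 for Chrm3 and chr3:89764633-89764882 for Chrnb2, and are written 5′ to 3′ on that strand. Capitals mark matches to any of 5 motifs searched on both strands. The GC box was spelled GGGCGG and the site of EGR factors GCGGGGGCG. The cyclic AMP response element was spelled TGACGTCA, the TATA box TATAAA and the E box CACGTG.
Chrna7: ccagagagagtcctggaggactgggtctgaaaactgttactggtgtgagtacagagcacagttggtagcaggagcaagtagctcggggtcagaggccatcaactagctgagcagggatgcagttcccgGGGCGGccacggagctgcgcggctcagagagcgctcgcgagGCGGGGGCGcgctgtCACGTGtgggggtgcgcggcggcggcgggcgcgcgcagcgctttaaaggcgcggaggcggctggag
Chrm3: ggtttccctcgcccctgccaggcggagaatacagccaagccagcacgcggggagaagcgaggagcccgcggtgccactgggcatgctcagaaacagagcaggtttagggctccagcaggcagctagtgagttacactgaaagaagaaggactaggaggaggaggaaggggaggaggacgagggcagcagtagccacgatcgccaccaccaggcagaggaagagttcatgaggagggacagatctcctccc
Chrnb2: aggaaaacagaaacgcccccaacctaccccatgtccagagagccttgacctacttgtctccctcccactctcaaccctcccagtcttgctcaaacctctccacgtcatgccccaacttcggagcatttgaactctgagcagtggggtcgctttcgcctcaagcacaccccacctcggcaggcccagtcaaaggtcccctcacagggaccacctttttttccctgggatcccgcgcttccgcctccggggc
The Chrna7 window held 1 GC box, 1 EGR site and 1 E box, with no overlap between them, and the Chrm3 and Chrnb2 windows held none of the 5. Of 32817 windows of the same length, 32.7 percent held a GC box, 2.57 percent the EGR site, 1.55 percent the cyclic AMP response element, 12.4 percent the TATA box and 6.02 percent the E box. CpG pairs numbered 25 in Chrna7, 10 in Chrm3 and 10 in Chrnb2, against a median of 6. No searched motif was thus found in all 3 windows, and for Chrm3 and Chrnb2 this says only that these letters are not in those 250 bases.

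Levels of different genes were compared as FPKM, the normalised read count scaled by exon length and by the column sum. Chrm1, the main Gq-coupled muscarinic receptor of cortical pyramidal neurons, stood highest, with a median of 33.6 FPKM over the 12 libraries and a range of 26.1 to 37.0. Ache followed with a median of 16.9 FPKM (14.8 to 20.6) and Chrm4 with 15.998 FPKM (10.2 to 21.8). These medians place Chrm1 apart from all other members: its lowest library lay above the highest library of Ache, whereas the ranges of Ache and Chrm4 overlapped and Ache was the higher in 9 of 12 libraries.

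Chrna4 and Chrm3 had medians of 10.4 and 10.3 FPKM, with ranges of 8.73 to 13.4 and 6.86 to 11.4 FPKM, so their ranges overlapped, and Chrna4 was the higher in 10 of 12 libraries. Chrnb2 had a median of 6.55 FPKM (4.55 to 8.89) and lay below Chrm3 within each of the 12 libraries. A gap separated Chrnb2 from the low members: Chrm2 had a median of 2.59 FPKM (1.77 to 3.28), Chrna5 2.17 FPKM (1.24 to 2.88) and Chrna7 1.97 FPKM (0.249 to 4.04), and each of these ranges overlapped the next. Chrm5, known for its part in midbrain dopamine neurons, was listed at 0 in 7 of 12 libraries and reached 0.173 FPKM at most.

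The gene models bear on this order. In the annotation Chrm4 and Chrm5 consist of coding sequence alone (1440 and 1599 bases), whereas the other members carry untranslated exons, for example 6487 bases in all with 1383 coding bases for Chrm1. Reads from untranslated parts of Chrm4 would not have been counted, so its rank against the others is uncertain. The members with reads on a shared exon are also limited where the counting did not use strand, which is not given in the sources used here: 1365 of 8380 exon bases of Chrnb2 overlap Adar on the opposite strand, as do 329 of 6487 of Chrm1, 142 of 6053 of Chrm2 and 98 of 4623 of Ache with noncoding genes.

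**Figure D1:**
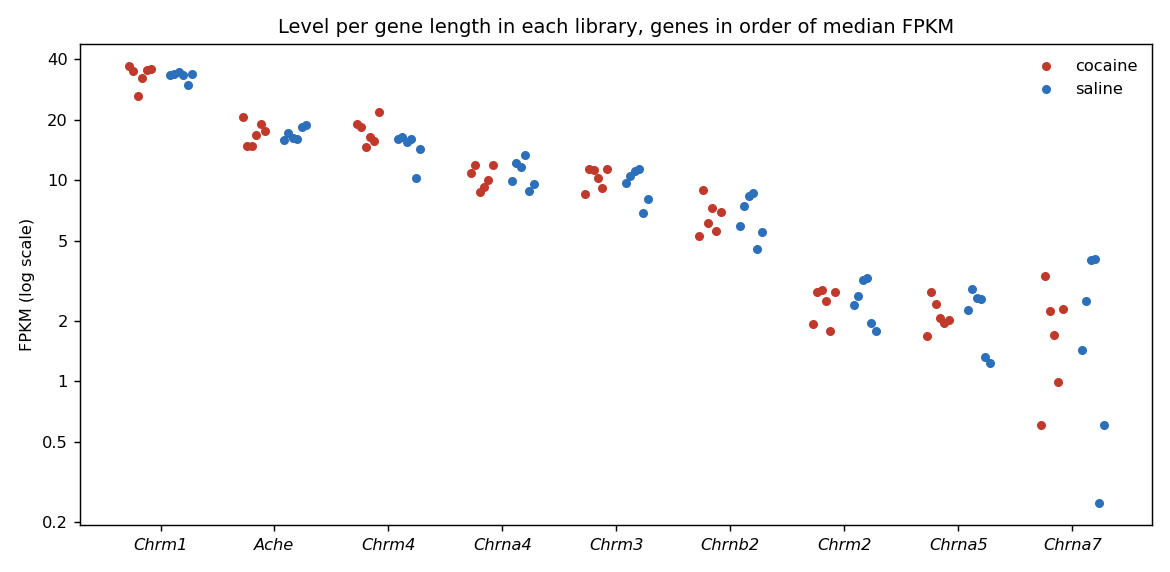
Level in FPKM (log scale) of 9 members in each of the 6 cocaine and 6 saline libraries, 1 point per library, in order of the median; Chrm5 is left out because most of its values are 0. Chrm1 lies above all others, and Chrna7 has the widest spread, from 0.249 to 4.04 FPKM.

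Within the muscarinic family Chrm1 held the largest share of FPKM, with a median of 52.0 percent in cocaine and 54.1 percent in saline libraries. Chrm4 held 25.3 to 30.5 percent (median 27.0) in cocaine and 20.96 to 26.1 percent (median 24.9) in saline libraries, Chrm3 16.3 and 16.1 percent at the median and Chrm2 3.99 and 4.11 percent. Within the 4 nicotinic subunits Chrna4 held a median of 48.5 percent in cocaine and 49.7 percent in saline libraries and Chrnb2 30.7 and 30.4 percent. The group ranges overlapped for every one of these shares.

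The question of the series was whether cocaine in adolescence left a lasting difference in the prefrontal cortex. No member differed between groups past the threshold: of the 9 members tested 0 had an adjusted p under 0.05 (limma, Benjamini-Hochberg over all 16067 genes tested; all adjusted p = 1.00), and the background was 0 percent of genes called. At an unadjusted p under 0.05 there were 0 of 9 members, against a background of 1.49 percent, and the groups overlapped in all 9, against a background of 0.0871 percent of genes without overlap. edgeR and DESeq2 on the recovered reads called 0 members too, with 0 at an unadjusted p under 0.05 in each. Over all genes edgeR called 0 of 16067, with 256 at an unadjusted p under 0.05. DESeq2 called 3 of 28827, with 428 at an unadjusted p under 0.05. Of the members tested 7 had a positive and 2 a negative difference, with a median of 0.0099, beside 51.6 percent positive and a median of 0.0038 over all genes tested (log2). With TMM scaling 4 members were positive and 5 negative, with a median of -0.00041, so the tally depends on the scaling. Each difference is cocaine minus saline in log2(value + 1), a scale on which changes of genes with low values come out too small. RNA came from whole tissue, so fewer cells of a type and less RNA per cell cannot be told apart.

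**Figure D2:**
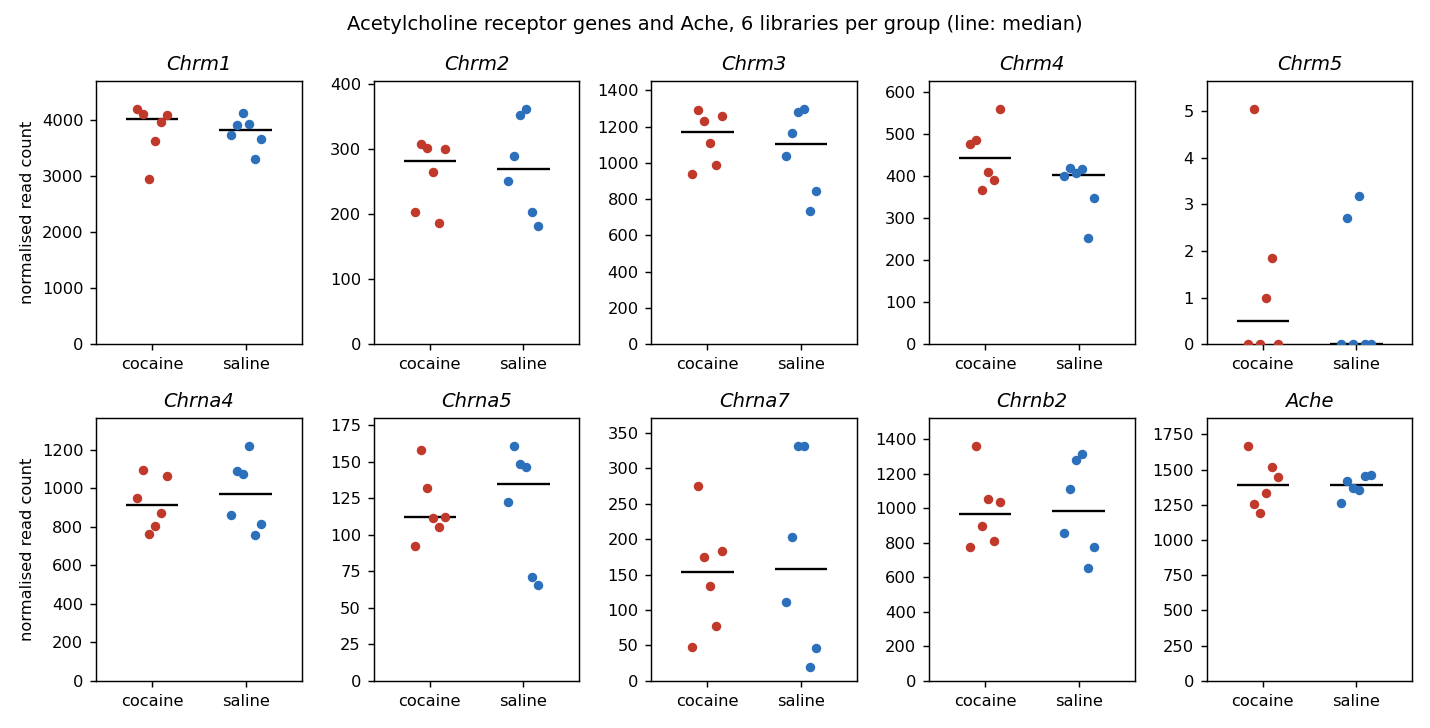
Normalised read counts of the 10 members in each library, cocaine left of saline, 6 points per group with a line at the median; each axis starts at 0. The groups overlap in every panel, and Chrna7 spreads from 19.2 to 331.7.

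Among the Gq-coupled receptors Chrm1 (ENSMUSG00000032773, plus strand of chromosome 19, 8663789 to 8683587) had 2956, 4029 and 4197 normalised reads as lowest, median and highest in cocaine libraries, against 3300, 3829 and 4124 in saline libraries. The lowest of all 12 was a cocaine library, and all saline libraries lay inside the cocaine range. The difference was 0.0099 ± 0.094 (SE; 95% interval -0.19 to 0.21), and the exact two-sided permutation p over all splits of 6 and 6 libraries was 0.913. At this spread a change of Chrm1 beyond 0.876-fold or 1.16-fold lies outside the interval.

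Chrm3, a Gq-coupled receptor that also drives smooth muscle and glands (ENSMUSG00000046159, minus strand of chromosome 13, 9875486 to 10360847), had 938, 1171 and 1291 normalised reads in cocaine libraries, against 736.7, 1104 and 1296 in saline libraries. The 2 lowest libraries were saline ones, and the highest cocaine and saline libraries were nearly equal. The difference was 0.12 ± 0.14 (SE; interval -0.19 to 0.42; exact permutation p = 0.468), and it was 0.019 without saline 5. Chrm5 (ENSMUSG00000074939, minus strand of chromosome 2, 112479171 to 112480769) did not pass the filter on low values: 8 reads were spread over 3 cocaine libraries and 6 reads over 2 saline libraries. With so few reads no difference was detectable at this depth.

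Chrm4, the Gi-coupled receptor that in the striatum opposes dopamine D1 receptor signalling, had the smallest p of the members (ENSMUSG00000040495, plus strand of chromosome 2, 91927249 to 91928688). It had 366.5, 443.1 and 558.5 normalised reads as lowest, median and highest in cocaine libraries, against 252.0, 403.3 and 419.8 in saline libraries. Of the 6 cocaine libraries 3 lay above the highest saline library, and the lowest of all was saline 5. The difference was 0.27 ± 0.14 (SE; interval -0.03 to 0.56), a 1.20-fold change with an unadjusted limma p of 0.0773 and an exact permutation p of 0.0996. In the authors' deposited table Chrm4 has a log2 difference of 0.26 and a p of 0.0772, adjusted to 1.00. Without saline 5 the difference was 0.16, and without cocaine 3 it was 0.32 with an unadjusted p of 0.0436.

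Striatal projection neuron markers were set beside Chrm4, since that receptor is abundant in such neurons and striatum borders the frontal cortex. Of 10 markers 2 had a positive and 8 a negative difference, and 0 of 10 passed the test. Their summed level was 3757 to 5593 normalised reads in cocaine and 3598 to 5647 in saline libraries, with Drd2 at 31.3 to 124 in cocaine and 27.5 to 171 in saline libraries, and none of the 10 was at 0. With the striatal marker score as a covariate the difference of Chrm4 was 0.24. Chrm2, the Gi-coupled receptor that also acts as a release-limiting autoreceptor on cholinergic terminals (ENSMUSG00000045613, plus strand of chromosome 6, 36388084 to 36528414), had 185.7, 281.5 and 308.4 normalised reads in cocaine libraries, against 181.8, 269.8 and 361.0 in saline libraries. Both ends of its range were saline libraries, and the difference was -0.048 ± 0.19 (SE; interval -0.45 to 0.35; exact permutation p = 0.81).

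Of the nicotinic subunits Chrna4 (ENSMUSG00000027577, minus strand of chromosome 2, 181018380 to 181043546) had 764.5, 912.1 and 1093 normalised reads as lowest, median and highest in cocaine libraries, against 757.9, 968.1 and 1220 in saline libraries. Its partner Chrnb2 (ENSMUSG00000027950, minus strand of chromosome 3, 89746195 to 89764632) had 774.1, 965.9 and 1360 in cocaine libraries, against 654.7, 984.1 and 1316 in saline libraries. For Chrna4 all cocaine libraries lay inside the saline range, and for Chrnb2 the highest library was a cocaine and the lowest a saline one. The differences were -0.061 ± 0.13 for Chrna4 (interval -0.34 to 0.22; exact permutation p = 0.673) and 0.0047 ± 0.18 for Chrnb2 (interval -0.39 to 0.39; exact permutation p = 0.983). Adar, whose exons overlap Chrnb2, differed by -0.047 (log2). Chrna5, an accessory subunit linked to nicotine intake and found in deep cortical layers (ENSMUSG00000035594, plus strand of chromosome 9, 54980880 to 55007779), had 92.4, 112 and 158.2 normalised reads in cocaine libraries, against 65.5, 134.6 and 160.9 in saline libraries. The saline libraries spanned a wider range than the cocaine libraries, and the difference was 0.060 ± 0.23 (SE; interval -0.43 to 0.55; exact permutation p = 0.825).

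Chrna7 (ENSMUSG00000030525, minus strand of chromosome 7, 63098692 to 63212569) varied far more between libraries than any other tested member. It had 47.7, 154.3 and 275.1 normalised reads as lowest, median and highest in cocaine libraries, against 19.2, 157.5 and 331.7 in saline libraries. The lowest and the highest of all 12 were both saline libraries, and the ratio of highest to lowest was 17.2, against 1.397 to 2.46 for the other tested members. The lowest, saline 5, rests on 19 reads (95% exact Poisson interval 11.4 to 29.7, counting error only). The within-group SD of Chrna7 was 1.32 on the log2 scale, larger than in 99.5 percent of the genes tested. The difference between groups was 0.15 ± 0.64 (SE; interval -1.22 to 1.52; exact permutation p = 0.857), so changes between 0.429-fold and 2.88-fold lie inside the interval. Its sign depended on single libraries and on the model: the difference was -0.35 without saline 5, -0.11 without saline 6, -0.068 without cocaine 2, -0.039 with library weights, -0.22 by edgeR and -0.23 by DESeq2.

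Ache, which also carries splice forms with different anchors (ENSMUSG00000023328, plus strand of chromosome 5, 137287519 to 137294466), had 1194, 1392 and 1668 normalised reads as lowest, median and highest in cocaine libraries, against 1264, 1393 and 1463 in saline libraries. All saline libraries lay inside the cocaine range. The difference was 0.0096 ± 0.087 (SE; interval -0.18 to 0.20; exact permutation p = 0.913), and its within-group SD of 0.139 (log2) was the smallest of the tested members.

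**Figure D3:**
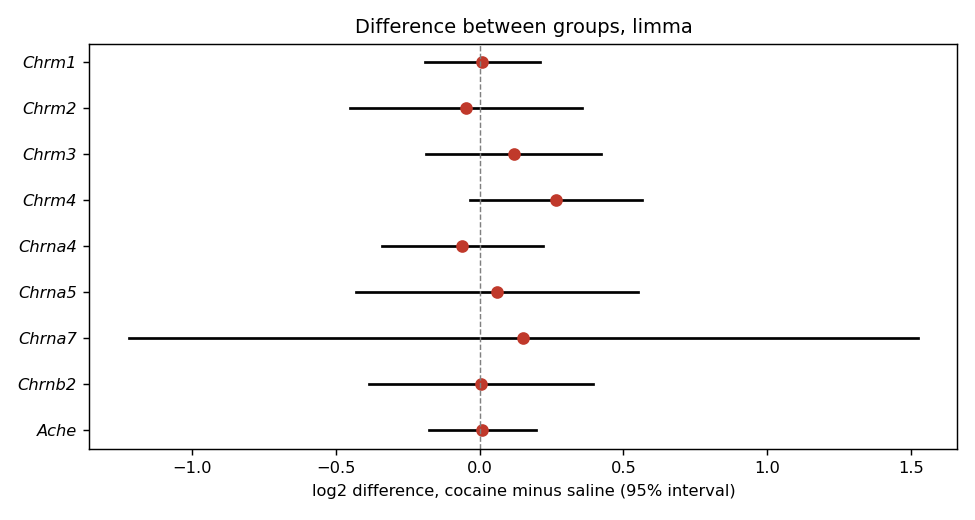
Difference between groups for the 9 tested members, as log2 of cocaine over saline from limma with its 95% interval. Every interval includes 0, and that of Chrna7 is the widest, from -1.22 to 1.52.

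Levels of most receptors moved together between libraries. Of the 36 pairs among the 9 tested members 31 had a positive correlation of log2 values over the 12 libraries (median r = 0.65), and 18 were past 0.05 after adjustment over the 36 pairs. No such share is given for pairs drawn from all genes tested. Whether the members moved together more than other genes was thus not tested. Chrm3 and Chrna7 were the closest pair, with r = 0.979 and rho = 0.958 (permutation p = 1e-05 for r, the smallest the resamples can give, and 2e-05 for rho; adjusted p = 0.00036 for both). Within groups their r was 0.978 in cocaine and 0.999 in saline libraries, and without saline 5 and 6, the libraries farthest from the median, it was 0.958. Chrna7 and Chrnb2 had r = 0.938 and rho = 0.944 (permutation, adjusted p = 0.000463 for r and 0.000432 for rho), with 0.867 within cocaine and 0.978 within saline libraries and 0.917 without saline 5 and 6. Chrm3 and Chrnb2 had r = 0.894 and rho = 0.930, below Chrna5 and Chrna7 by r (0.913) and Chrm2 and Chrm3 by rho (0.951). Where strand was not used, reads of Adar could enter Chrnb2 through the shared 1365 of 8380 exon bases. Their part in the correlations of Chrnb2, here and below, was not tested.

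The partners Chrna4 and Chrnb2 had r = 0.788 and rho = 0.734 (permutation, adjusted p = 0.0111 for r and 0.0246 for rho), with 0.481 within cocaine and 0.973 within saline libraries, and 0.672 without saline 4 and 5. Chrm1 and Chrm4 had r = 0.679 and rho = 0.685 (permutation, adjusted p = 0.0439 for r and 0.0365 for rho), with 0.737 within cocaine and 0.924 within saline libraries, and 0.674 without cocaine 3 and saline 5. Ache ran against the receptors in 5 of 8 pairs, with r = -0.60 and rho = -0.65 against Chrm2 at the lowest (permutation, adjusted p = 0.0671 for r and 0.0517 for rho), which did not pass. Chrm1 and Chrna7 had r = 0.306 over the 12 libraries and 0.277 without cocaine 3 and saline 5, with -0.266 within cocaine and 0.954 within saline libraries. Within cocaine and saline libraries Chrm1 had r of -0.357 and 0.803 with Chrm2, -0.297 and 0.938 with Chrm3, and -0.288 and 0.814 with Chrna5. With Chrm4, Chrna4 and Chrnb2 its r was positive in both groups, and with Ache it was 0.683 and -0.395. These differences between groups were not tested, and each r rests on 6 libraries. All these values share library, depth and size factor.

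**Figure D4:**
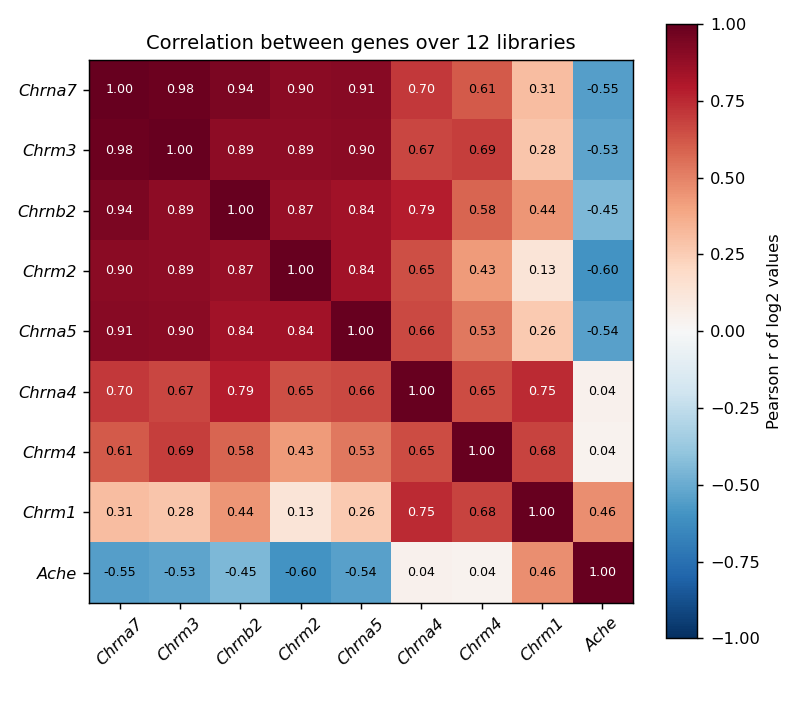
Pearson r between the log2 normalised read counts of the 9 tested members over the 12 libraries. Chrna7, Chrm3, Chrnb2, Chrm2 and Chrna5 form a block with r from 0.84 to 0.98, and Ache is negative against all 5 of them.

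Several members were low in the libraries where transcripts of cytosolic ribosomal proteins were high. This measure was chosen after the values were seen, so its correlations are given as a description, with no test. The score of 76 such genes, the mean log2 deviation from each gene's mean, ranged from -0.27 to 0.29 in cocaine and from -0.40 to 0.45 in saline libraries. It ran against Chrnb2 with r = -0.976 and rho = -0.965 and against Chrna7 with r = -0.963 and rho = -0.986. For Chrna7 r was -0.928 within cocaine and -0.986 within saline libraries, and -0.96 without saline 4 and 5. Negative values were also found for Chrm3 (r = -0.926, rho = -0.958), Chrm2 (r = -0.919, rho = -0.916), Chrna5 (r = -0.865, rho = -0.867) and Chrna4 (r = -0.813, rho = -0.783). Without saline 4 and 5 these 4 had r of -0.906, -0.912, -0.82 and -0.695. For Chrna4 r was -0.494 within cocaine and -0.977 within saline libraries. The share of all genes tested that ran against the score is not given, so these values do not set the members apart from other genes.

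Chrm4 had r = -0.595 and rho = -0.594 against the ribosomal protein score, and r was -0.43 without saline 4 and 5. Chrm1 had r = -0.412 and rho = -0.378 over all libraries, with r of -0.066 within cocaine and -0.908 within saline libraries. Ache had r = 0.451 and rho = 0.531, with r of 0.624 within cocaine and 0.426 within saline libraries. The part of ribosomal protein transcripts in these levels was not tested further. With their score as a covariate, added after the values were seen, the standard error of Chrna7 was 0.17 in place of 0.64. Under that covariate the limma difference was 0.26 ± 0.17 (SE) for Chrna7, 0.28 ± 0.10 for Chrm4 and 0.14 ± 0.055 for Chrm3. Of the 9 members 0 passed the adjusted threshold and 2, Chrm3 and Chrm4, had an unadjusted p under 0.05, beside 3.47 percent of all genes tested in that fit. Since the covariate was chosen because it ran against these members, this count is a description.

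**Figure D5:**
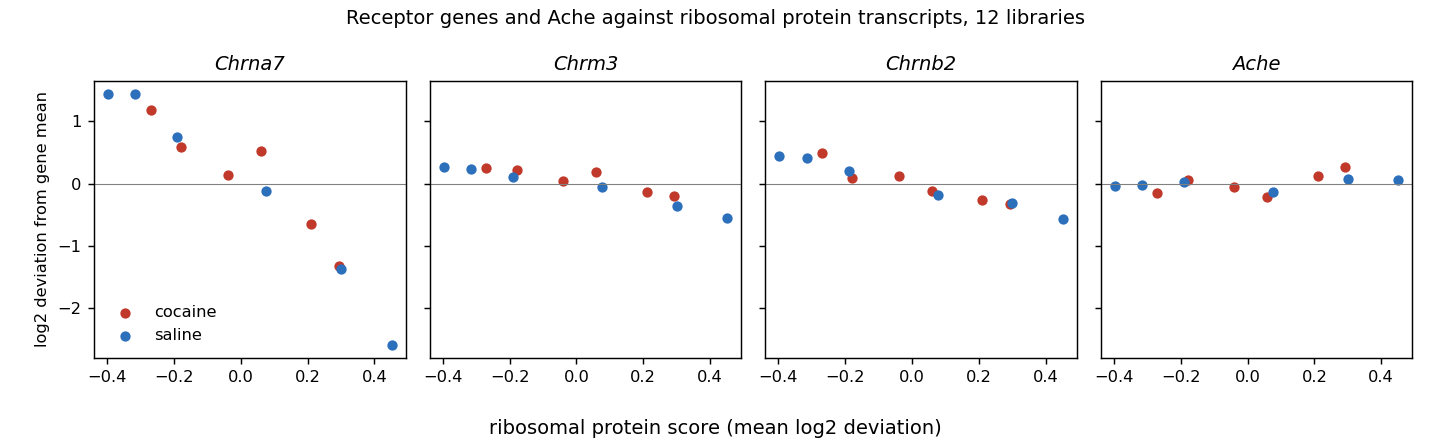
log2 deviation of Chrna7, Chrm3, Chrnb2 and Ache from their own mean against the ribosomal protein score, 1 point per library (6 cocaine, 6 saline). Chrna7, Chrm3 and Chrnb2 fall as the score rises (r = -0.963, -0.926 and -0.976), Chrna7 over the widest range, while Ache shows r = 0.451.

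Genes most like each member were taken by the highest Pearson r of deviations from the group means over the 12 libraries among protein-coding genes averaging 1 FPKM or more, given as a description. For Chrna7 they were Chrm3 (r = 0.993, rho = 0.979) and Ubfd1 (r = 0.991), and for Chrm3 they were Chrna7 and Kat7, a histone acetyltransferase (r = 0.992). Chrnb2 was closest to Dnajc16 (r = 0.994) and Snrk (r = 0.993), and Chrm2 to Cdk13 (r = 0.987) and Slc16a14 (r = 0.983). Such likeness was common for these members: 7.42 percent of the genes tested had r over 0.9 with Chrna7, 7.33 percent with Chrm3, 7.97 percent with Chrnb2 and 6.16 percent with Chrm2. It was rare for the others, at 1.36 percent for Chrna4, 0.629 percent for Chrna5, 0.542 percent for Chrm1, 0.293 percent for Ache and 0.0996 percent for Chrm4. In the opposite direction, 3.29 percent of the genes tested had r under -0.9 with Chrna7. For Chrm3 this was 3.17 percent, for Chrnb2 3.48 percent and for Chrm2 2.83 percent.

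Chrna4 was closest to the adhesion proteins Amigo1 (r = 0.976) and L1cam (r = 0.974), and Chrna5 to the activity-regulated transcription factor Egr3 (r = 0.958) and to Cyth3 (r = 0.957). Chrm1 was closest to Kcnab2, a potassium channel beta subunit (r = 0.974), and Sh2d5 (r = 0.972), and Chrm4 to Vsig2 (r = 0.938) and Drp2 (r = 0.93). Ache was closest to Pld3 (r = 0.966) and to Faah, which breaks down the endocannabinoid anandamide (r = 0.965).

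Other genes of acetylcholine signalling were read from 5 lists. Of the 51 list genes tested 0 passed the adjusted threshold in either direction, and 0 had an unadjusted p under 0.05, against the background of 1.49 percent. Of the other nicotinic subunits 10 of 12 were measured and 5 tested, with 3 positive and 2 negative differences. The ganglionic subunit Chrna3 had 27.7 to 55.6 normalised reads in cocaine and 20.2 to 38.2 in saline libraries, with a difference of 0.15 ± 0.21 (log2, SE). Chrnb3 had 16.5 to 50.4 in cocaine and 17.2 to 47.1 in saline libraries, and Chrnb1 had 13.2 to 30.4 in cocaine and 15.2 to 30.7 in saline libraries. Chrna2, a marker of some deep-layer interneurons, differed by -0.27 ± 0.35 (log2, SE), and Chrna1, the muscle subunit, by 0.13 ± 0.30. Chrna6, Chrna9, Chrna10, Chrnb4 and Chrne stood at 6.43 normalised reads or below in every cocaine library and at 12.1 or below in every saline library.

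The defining genes of cholinergic neurons, whose cell bodies lie mostly outside the cortex, were close to 0. Chat, which makes acetylcholine, had 1.01 to 5.93 normalised reads in cocaine and 0.899 to 6.46 in saline libraries. Slc18a3, the vesicular transporter, had 1.98 to 7.35 in cocaine and 0 to 5.39 in saline libraries, too low to be tested in the fit (exact permutation p = 0.0238, unadjusted among 59 list genes measured). Slc5a7, the choline transporter of cholinergic terminals, had a median of 14.3 in cocaine and 20.5 in saline libraries (-0.32 ± 0.27, log2, SE). Prima1, the membrane anchor of acetylcholinesterase, had 7.95 to 75.1 normalised reads in cocaine and 15.9 to 87.0 in saline libraries (-0.47 ± 0.53). Bche, which also breaks down acetylcholine, differed by -0.29 ± 0.40, and the choline transporter genes Slc44a1 by -0.23 ± 0.28 and Slc44a2 by -0.10 ± 0.088. Acly, which makes acetyl-CoA, differed by 0.040 ± 0.14, and Colq, the collagen tail of acetylcholinesterase, by 0.050 ± 0.25 (log2, SE).

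Myelin transcripts varied between libraries as well: the 12 myelinating oligodendrocyte markers summed to 51583 to 204114 normalised reads in cocaine and 34799.5 to 247653 in saline libraries, with none at 0. All 12 had negative differences (median -0.19, log2), and 0 of 12 passed the test. With their score as a covariate the difference was 0.24 for Chrm4 and 0.043 for Chrna7. The 4 red blood cell markers all had positive differences (0.43 to 0.70, log2). Of these 4, 1 had an unadjusted p under 0.05, against a background of 1.49 percent of genes tested. They summed to 1299.6 to 2488 normalised reads in cocaine and 763.5 to 2682 in saline libraries. Their part in the members' levels was not tested.

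Chaperones and Ly6 modulators of nicotinic receptors had 9 positive and 2 negative differences among 11 tested, all between -0.023 and 0.072 (log2). Tmem35a, the chaperone NACHO that helps assemble Chrna7 channels, had 893 to 1224 normalised reads in cocaine and 967 to 1101 in saline libraries (0.055 ± 0.089, log2, SE). Ly6e differed by 0.047 ± 0.084 and Ywhah by 0.072 ± 0.093. Chrna7 ranged over 17.2-fold in the same libraries, and a relation between the levels of Tmem35a and Chrna7 was not tested.

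Effectors of the Gq-coupled receptors had 6 positive and 10 negative differences among 16, between -0.16 and 0.096 (log2). The phospholipase gene Plcb3 had the smallest p, with 148.6 to 248.9 normalised reads in cocaine and 211.3 to 241.9 in saline libraries (-0.16 ± 0.11, log2, SE; exact permutation p = 0.143), followed by the G protein gene Gna11 (-0.060 ± 0.081) and Plcb2 (-0.10 ± 0.15). Effectors of the Gi-coupled and Go-coupled receptors had 5 positive and 7 negative differences among 12, between -0.21 and 0.089. The potassium channel genes Kcnj3 and Kcnj9, opened by G protein beta-gamma subunits, differed by 0.089 ± 0.094 and 0.075 ± 0.16, and the adenylyl cyclase gene Adcy5 by -0.12 ± 0.16 (log2, SE). Among these effectors 0 genes passed the test.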

How the data were processed

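Total RNA of prefrontal cortex was sequenced after an Illumina TruSeq preparation, per the labels' protocols, and the submitters' processing notes list HISAT2 2.0.5. How reads were counted, and whether strand was used, is not given in the sources used here. The notes list the build hg38, but the gene IDs are mouse ones, and all 10 members have the start and end of GENCODE M21, so coordinates are those of GRCm38. Per the file headers the authors deposited 1 value per gene and library, group means, a log2 fold change (cocaine over saline), a p-value, an adjusted p-value and a gene length (a column of another kind). The deposited signal is normalised reads, read counts that the authors divided by 1 size factor per library but not by gene length, although the table is called FPKM. Divided by the smallest step of its library, every value (100 percent) came within 0.01 of a whole number, which gave the recovered reads.

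Groups were taken from the treatment label. The main test was limma 3.58.1 in R 4.3.3 on log2(value + 1), empirical Bayes with a variance trend, two-sided, no covariates, over the 16067 genes with a mean value of at least 10 over all 12 libraries, with Benjamini-Hochberg adjustment and a threshold of 0.05. Single genes were also compared by an exact permutation test over all splits, and correlations over 12 libraries by permutation with 100000 resamples. FPKM was computed from value, gene length and column sum. edgeR 4.0.16 and DESeq2 1.42.0 on the recovered reads were alternatives. The fit was tested on simulated data. Members, lists and tests were chosen with earlier results of these data known. Genes were named by rule: all members, the 3 with the smallest p from each list, all other nicotinic subunits and genes of acetylcholine handling, and the 2 genes most like each member. Alternatives changed the pseudocount, filter, scaling, variance model, covariates (the labels' time tag of day 0 or day 5 among them), tool and libraries used. Promoters are from RefSeq; 9 of 10 members matched. No 2 libraries held identical values.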

Additional observations from a re-analysis of the deposited data

Results flagged for a closer look

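Chrm5 had 5.04 normalised reads (5 reads) in cocaine 2, against 1.84 in the next highest cocaine library. The gap to the nearest library took 0.635 of the range of the 6 cocaine libraries, above the critical value of 0.625. Of 20 groups of values checked this was 1, and chance gives about 1 in 20 for values with a normal spread. Counts as low as those of Chrm5 do not have such a spread, so that rate need not hold here.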

How the results depend on the processing

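No member and no list gene passed the adjusted threshold under any of the 12 settings that left out 1 library or the 16 other fits, 1 of which (the ribosomal protein score) was chosen after seeing the data. Over all genes 0 passed as reported and in 15 of those 16; DESeq2 called 3. Genes at an unadjusted p under 0.05 numbered 240 of 16067 as reported. Over the alternatives they ranged from 149 of 13016 (minimum mean FPKM of 1) to 860 of 28842 (edgeR with no count filter). These counts thus rest on different numbers of genes tested.

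Chrm3 and Chrm4 kept a positive difference in all fits. For the others the sign turned under some settings. For Chrm1 it was -0.00041 with TMM scaling, -0.0070 with the myelin score and -0.014 with the striatal score; for Chrna5 -0.12 with library weights, -0.0092 by edgeR with no count filter and -0.0035 by DESeq2; for Chrna7 -0.039 with library weights, -0.22 by edgeR, -0.23 by edgeR with no count filter and -0.23 by DESeq2. For Chrnb2 it was -0.0055 with TMM scaling, -0.013 with library weights, -0.027 with the myelin score, -0.021 with the striatal score, -0.012 by edgeR, -0.024 by edgeR with no count filter and -0.016 by DESeq2, and for Ache -0.00064 with TMM scaling and -0.0046 with the striatal score. The cause was not tested.

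Leaving out 1 library at a time gave -0.029 to 0.082 for Chrm1, -0.16 to 0.043 for Chrm2, 0.019 to 0.18 for Chrm3, 0.16 to 0.32 for Chrm4, -0.13 to 0.0097 for Chrna4, -0.093 to 0.16 for Chrna5, -0.35 to 0.46 for Chrna7, -0.11 to 0.093 for Chrnb2 and -0.042 to 0.054 for Ache. Without length 6 of 10 members changed place in the order by level, and with the cocaine libraries alone 4 did.

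The replicate number as a block called 0 genes and 0 members. Same-numbered libraries did not deviate together: over the 6 pairs the correlation of deviations ranged from -0.343 to 0.33, was over 0.1 in 2, and 0 cocaine libraries correlated best with their own number. Chrm5, with 14 reads in all, was too low to be tested.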
